A study of Homo sapiens with 6 samples.

Results

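The genes of the proteasome were followed in DYRK1A-silenced T98G cells. They were chosen by symbol, as the PSMA, PSMB, PSMC, PSMD and PSME genes that encode the constitutive core particle, the regulatory particle and the activators. The rule found 38 of the 23030 genes in the normalized table: 7 subunits of the 20S alpha ring, 7 of the 20S beta ring, 6 ATPases of the 19S particle, 3 other subunits of the 19S base, 8 subunits of the 19S lid, 3 chaperones that assemble the 19S base, and 4 activators. Of these, 35 passed the expression filter and were tested, and PSMA2, PSMA6 and PSMD9 did not pass it.

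The proteasome degrades proteins that carry ubiquitin chains. Its 20S core is a barrel of stacked rings in which the alpha subunits form the gate and the beta subunits hold the peptidase sites, and the 19S particle binds ubiquitin, removes it, and unfolds the substrate with a ring of ATPases. Activators can take the place of the 19S particle at the ends of the barrel, and in cells exposed to interferon gamma the catalytic beta subunits can be replaced by immunoproteasome subunits, which favour peptides for antigen presentation. The transcription factor NRF1, encoded by NFE2L1, is known for raising the transcription of subunit genes together when proteasome activity is limiting.

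T98G is a human glioblastoma cell line. Cells were infected with lentivirus carrying a control hairpin (shControl) or a hairpin against the protein kinase DYRK1A (shDYRK1A), selected with puromycin and left to recover. The same number of cells from each condition received a constant amount of Drosophila Kc167 cells, so that fly reads could set the scale of each library. There were 3 libraries per condition, named 1A, 1B and 1C, and nothing in the labels says whether they came from separate infections, so the p-values measure the spread between these libraries only. Both groups are puromycin-selected populations of 1 cell line.

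Gene counts per library ranged from 33708297 to 42154438. Size factors from the fly reads were 0.821 to 1.03 in shControl and 1.06 to 1.21 in shDYRK1A. Coordinates are GRCh38 with GENCODE v29 genes. DYRK1A itself (ENSG00000157540, chromosome 21, 37365573 to 37526358, plus strand) had spike-in normalized counts of 2227, 2234 and 1895 for shControl 1A to 1C and 1482, 1056 and 1285 for shDYRK1A 1A to 1C. Every shDYRK1A library lay below every shControl library, at a log2 fold change of -0.73 (SE 0.15, adjusted p = 5.33e-06) in edgeR's quasi-likelihood test with Benjamini-Hochberg adjustment over all genes tested, which is 60.2% of the control level on this scale. As counts per 1000000 human gene counts (CPM) it had 46.3, 46.7 and 47.2 CPM in shControl and 40.4, 33.8 and 38.6 CPM in shDYRK1A, again with no overlap, and with TMM factors over the human counts (trimmed mean of M values) the log2 fold change was -0.34 (SE 0.06, adjusted p = 0.000591). Reads that did not map made up 15.6% in shDYRK1A 1B, which also had the fewest gene counts, and 8.44 to 11.9% in the other libraries. Of the glial and mesenchymal markers, VIM, CD44 and FN1 were abundant, OLIG2 averaged 77.7 normalized counts in shControl, and GFAP, SOX2, S100B and FABP7 were at or near 0, as were PTPRC, CDH1, RBFOX3 and ALB, while EPCAM and PECAM1 averaged 36.6 and 16.2.

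The promoters of 4 subunit genes are shown because these genes mark the ends of the range described here: PSMD12 had the lowest log2 fold change of the 35 tested subunits, PSMC4 the highest among the ATPases, and PSME1 and PSME2 the highest of all. Each run covers 250 bases before and 50 bases after the RefSeq start (GRCh38.p14), read in the direction of the gene. Capitals mark matches, on either strand, to TGACNNNGC, the core of the antioxidant response element that NRF1 and its relatives bind, to TTTC repeated after any 2 bases, a core of interferon-stimulated response elements, to CCAAT, and to a palindrome known from promoters that DYRK1A occupies. Only the first pair of motifs occurs in these runs, and no matches overlap there.
PSMD12 (chr17:67366528-67366827, minus strand): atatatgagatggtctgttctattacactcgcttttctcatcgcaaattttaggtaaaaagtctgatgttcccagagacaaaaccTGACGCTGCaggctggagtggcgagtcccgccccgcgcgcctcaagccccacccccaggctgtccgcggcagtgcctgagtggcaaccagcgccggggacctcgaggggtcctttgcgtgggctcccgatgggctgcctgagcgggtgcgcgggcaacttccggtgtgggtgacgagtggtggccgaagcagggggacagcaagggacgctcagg
PSMC4 (chr19:39970915-39971214, plus strand): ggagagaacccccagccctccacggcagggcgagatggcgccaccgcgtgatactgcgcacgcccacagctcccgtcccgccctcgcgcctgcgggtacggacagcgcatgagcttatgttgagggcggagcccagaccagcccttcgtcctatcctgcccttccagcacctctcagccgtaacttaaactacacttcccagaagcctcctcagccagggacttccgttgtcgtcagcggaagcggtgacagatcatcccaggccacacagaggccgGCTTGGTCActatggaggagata
PSME1 (chr14:24135944-24136243, plus strand): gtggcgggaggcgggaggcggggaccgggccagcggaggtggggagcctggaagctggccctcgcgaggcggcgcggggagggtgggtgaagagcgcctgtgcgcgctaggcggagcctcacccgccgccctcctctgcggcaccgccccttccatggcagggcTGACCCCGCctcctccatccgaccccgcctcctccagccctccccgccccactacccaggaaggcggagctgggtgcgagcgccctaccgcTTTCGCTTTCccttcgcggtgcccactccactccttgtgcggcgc
PSME2 (chr14:24146561-24146860, minus strand): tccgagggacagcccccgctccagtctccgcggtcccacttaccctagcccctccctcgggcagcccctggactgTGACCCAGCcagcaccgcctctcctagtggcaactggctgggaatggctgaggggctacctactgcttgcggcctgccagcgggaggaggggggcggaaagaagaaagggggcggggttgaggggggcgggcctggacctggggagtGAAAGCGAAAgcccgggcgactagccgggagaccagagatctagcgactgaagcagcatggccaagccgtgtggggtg

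The table of promoters matched 33 of the 38 genes, all but PSMA7, PSMB1, PSMB6, PSMB7 and PSMD4. TGACNNNGC occurred in 10 of the 33 (30.3%), against 15.5% of the promoters of the 7594 tested genes in that table. The 10 genes were PSMB3, PSMC4, PSMD1, PSMD3, PSMD12, PSMD5, PSMD9, PSME1, PSME2 and PSME4, a set that held the lowest of the tested subunits and the highest alike. The repeated TTTC occurred in 4 of the 33 (12.1%), in PSMA4, PSMB4, PSME1 and PSME2, against 2.94% of tested genes. PSME1 and PSME2 carried the same 10 letters, TTTCGCTTTC in PSME1 from 5 bases after the start and its reverse complement GAAAGCGAAA in PSME2 from 28 bases before it, and the immunoproteasome gene PSMB10 carried GAAAGCGAAA from 21 bases before its start. The promoters of the other immunoproteasome genes, PSMB8 and PSMB9, held no match to the repeated TTTC. CCAAT occurred in 16 of the 33 (48.5%, against 37.3%) and the ETS core CCGGAA in 17 (51.5%, against 33.1%). The palindrome, TCTCG followed by its reverse complement, occurred in 0 of the 33 promoters and in 1.08% of those of tested genes, which says only that these exact letters are not in these windows. Near matches, such as TCTCGCGAGG in the promoter of PSMD5, were not counted. The motif searches were chosen with the fold changes known, and a match is a description of the letters, not a site of binding.

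With spike-in scaling, all 35 tested subunits had a negative log2 fold change in shDYRK1A, and 30 (85.7%) were lower at an adjusted p below 0.05, where 63.4% of the 9697 genes tested were lower. No subunit was higher (0 also at an unadjusted p and with DESeq2, since all estimates were negative), against 1.08% of all genes. Groups were separate, with no overlap between libraries, in 29 of the 35 (82.9%), against 65.2% of all genes. The median log2 fold change of the subunits was -0.40, the same to 2 decimals as the median of all genes. The larger shares called and separate thus came without a larger median fall. Levels in shControl ran from percentile 16.9 of the genes tested (PSMA1) to 98.4 (PSMD2), with all beta subunits at 84.4 or above. The counts of PSMA1 may hold only part of its reads, as described below, and the next lowest subunit was PSMD5, at percentile 38.7. The part of level in the share called was not tested. A log2 fold change below -0.7 was reached by 1 subunit, PSMD12, against 14.3% of all genes. In bulk RNA scaled to a cell-number spike-in, fewer T98G cells in the mix and less RNA per cell cannot be told apart.

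Since most genes fell with spike-in scaling, the subunits were also compared with the other human genes, by scaling with TMM factors. The median of all genes then was 0.00 and that of the subunits 0.01. Relative to the other human genes, 6 subunits were lower (against 28.6% of all genes) and 5 higher (against 27.3%), and 24 passed neither way. The 6 lower were PSMA3, PSMD11, PSMD12, PSMD5, PSMD10 and PSME4, and the 5 higher were PSMC4, PSMD4, PSMD8, PSME1 and PSME2. In the 6 fits that left out 1 library, PSMD8 kept this call in 2 and PSME4 in 4, and the others named here kept it in all 6. Without shDYRK1A 1B, the library with the most unmapped reads, the subunits lower with TMM scaling numbered 11, and the part of read quality in this was not tested. The share of all genes lower in that fit was not counted. The 5 higher were also those that did not pass the test with spike-in scaling. The share of all human counts that fell on the 38 genes was 0.766 ± 0.0129% in shControl and 0.794 ± 0.0236% in shDYRK1A (SD, n = 3), with overlapping libraries. As CPM 21 of the 35 subunits (60%) had separate groups, against 62.8% of all genes.

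**Figure D1:**
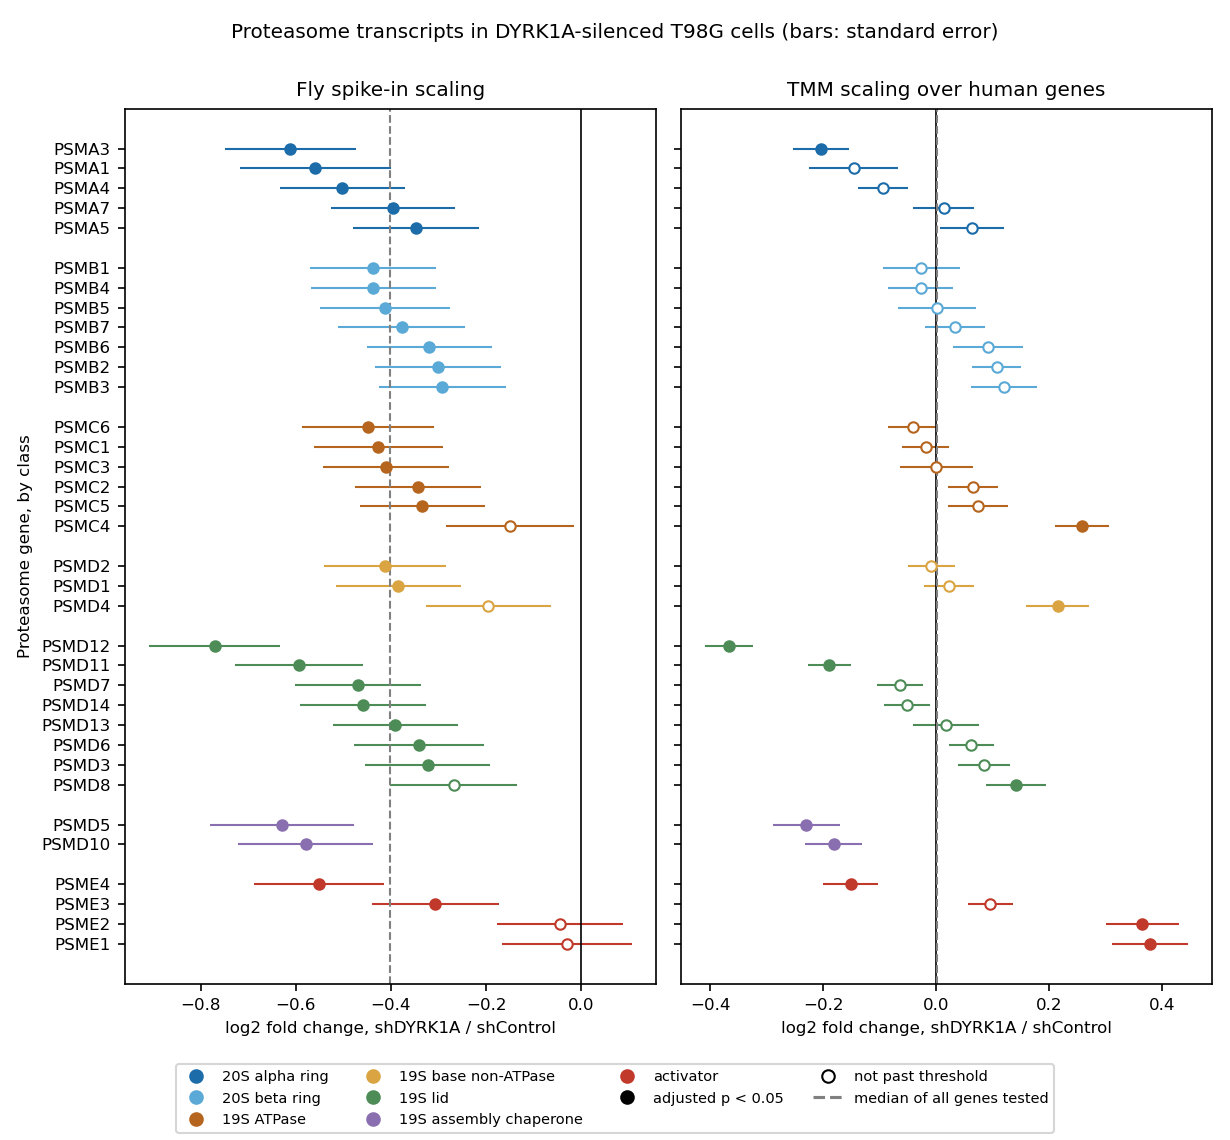
Log2 fold change of the 35 tested proteasome genes (points, with standard errors) with spike-in scaling on the left and TMM scaling on the right, filled where the adjusted p is below 0.05, with the median of all genes dashed. On the left all points lie below 0 and around the dashed line at -0.40, with PSMD12 farthest down and PSME1 and PSME2 next to 0; on the right PSME1 and PSME2 stand at 0.38 and 0.37 and PSMD12 at -0.37.

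The alpha ring, whose subunits guide assembly of the core and close its gate, had the lowest median of the core classes. All 5 tested members were lower (all genes 63.4%), with a median of -0.50, which is 0.10 below the median of all genes. PSMA1 shares 88.6% of its coding bases with exons of AC018523.2 on the same strand, so its counts may hold only part of its reads, and without it the median of the other 4 was -0.45, which is 0.05 below the median of all genes. The lowest was PSMA3 (ENSG00000100567, chromosome 14, 58244831 to 58272012, plus strand), with normalized counts of 5729, 5419 and 4540.0 for shControl 1A to 1C and 3720.3, 3282 and 3261 for shDYRK1A 1A to 1C. Its groups were far apart, with the highest shDYRK1A library under the lowest shControl library, and its log2 fold change was -0.61 (SE 0.14, adjusted p = 5.12e-05). It stayed lower relative to the other human genes, at -0.20 (SE 0.05, adjusted p = 0.00444). The highest alpha subunit was PSMA5 (ENSG00000143106, chromosome 1, 109399031 to 109426427, minus strand), with 12264, 10888 and 9235 in shControl and 8927, 8209 and 8328 in shDYRK1A. The groups again did not overlap, but shControl 1C lay close above shDYRK1A 1A, and the log2 fold change was -0.35 (SE 0.13, adjusted p = 0.0166). Relative to the other human genes PSMA5 stood at 0.06 (SE 0.06, adjusted p = 0.353).

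The beta ring carries the peptidase activities, in PSMB5 (chymotrypsin-like), PSMB6 (caspase-like) and PSMB7 (trypsin-like). All 7 members were lower (all genes 63.4%) and lay within a narrow range, from -0.44 to -0.29. Their median was -0.38, which is 0.02 above that of all genes. The lowest was PSMB1 (ENSG00000008018, chromosome 6, 170535117 to 170553341, minus strand), with 12567, 11542 and 9918 in shControl and 8756, 8599.8 and 7754 in shDYRK1A and a log2 fold change of -0.44 (SE 0.13, adjusted p = 0.00249). The highest was PSMB3 (ENSG00000277791, chromosome 17, 38752736 to 38764231, plus strand), with 10916, 10554 and 8775 in shControl and 8629, 8263 and 7818 in shDYRK1A and a log2 fold change of -0.29 (SE 0.13, adjusted p = 0.0444). In both genes the 3 shDYRK1A libraries lay under the lowest control library. The call of PSMB3 lay close to the threshold: its adjusted p was 0.0551 with the filterByExpr filter, 0.0963 with no filter beyond 1 count and 0.055 with the library letter as a block, and the call was lost without shControl 1A, shControl 1B, shDYRK1A 1B or shDYRK1A 1C. With TMM scaling the 7 lay between -0.03 (PSMB4) and 0.12 (PSMB3), and the lowest adjusted p was 0.0551, for PSMB2. The catalytic subunits were not set apart from the structural ones: PSMB5 stood at -0.41, PSMB6 at -0.32 and PSMB7 at -0.38 with spike-in scaling, all 3 inside the range of the ring. These 3 are named for their peptidase role, after their values were seen.

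The 6 ATPases form the ring that unfolds substrates and threads them into the core. Of these, 5 were lower (all genes 63.4%), with a class median of -0.38, which is 0.02 above that of all genes. PSMC6 (ENSG00000100519, chromosome 14, 52707172 to 52728587, plus strand) was the lowest, with 4451, 4328 and 3539 in shControl and 3237, 2742 and 3045 in shDYRK1A and a log2 fold change of -0.45 (SE 0.14, adjusted p = 0.00325). Its libraries separated by group. PSMC4 (ENSG00000013275, chromosome 19, 39971005 to 39981441, plus strand) was the exception in the ring, with 7261, 6814 and 5767 for shControl 1A to 1C and 6302, 5709 and 5869.6 for shDYRK1A 1A to 1C. Its shDYRK1A 1A and 1C libraries exceeded shControl 1C, so the groups overlapped, and the log2 fold change of -0.15 (SE 0.13, adjusted p = 0.314) did not pass the test. Relative to the other human genes PSMC4 was higher, by 0.26 (SE 0.05, adjusted p = 0.000778), and it was the only ATPase called with TMM scaling. As a share of each library, PSMC4 had 151, 142 and 144 CPM in shControl and 172, 183 and 176 CPM in shDYRK1A, with no overlap.

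The non-ATPase subunits of the base include the scaffolds PSMD1 and PSMD2 and the ubiquitin receptor PSMD4. Ubiquitin-like domains of shuttle factors dock onto PSMD2. PSMD2 (ENSG00000175166, chromosome 3, 184298709 to 184309054, plus strand) was the lowest of the 3 and the most abundant of all 38 genes by counts, with 33423, 33867 and 28265 in shControl and 25783, 21722 and 24265 in shDYRK1A. Its groups were separate, and its log2 fold change was -0.41 (SE 0.13, adjusted p = 0.00317). PSMD4 (ENSG00000159352, chromosome 1, 151254703 to 151267479, plus strand) had 11576, 11803 and 9550.2 in shControl and 10159, 9546 and 9063 in shDYRK1A. Here shDYRK1A 1A lay above shControl 1C, and the log2 fold change of -0.19 (SE 0.13, adjusted p = 0.18) did not pass the test. Relative to the other human genes PSMD4 was higher, at 0.22 (SE 0.06, adjusted p = 0.00627). ADRM1, the other ubiquitin receptor of the base, lies outside the symbol rule and stood likewise at -0.22 (SE 0.13, adjusted p = 0.133) with spike-in scaling and 0.19 (SE 0.06, adjusted p = 0.0253) with TMM.

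The lid, which carries the deubiquitinase PSMD14, ranged from -0.77 to -0.27. Of its 8 members 7 were lower (all genes 63.4%), and the groups were separate for all 8 (all genes 65.2%). The median was -0.42, which is 0.02 below that of all genes. PSMD12 (ENSG00000197170, chromosome 17, 67337916 to 67366627, minus strand), a scaffold subunit of the lid, was the lowest of all subunits, with 6375, 6272 and 5055 for shControl 1A to 1C and 3861, 3064 and 3450.4 for shDYRK1A 1A to 1C. No library of one group came near the other: shControl 1C, the lowest control, had well above the count of shDYRK1A 1A, the highest of the silenced libraries. The log2 fold change was -0.77 (SE 0.14, adjusted p = 2.93e-07), and relative to the other human genes it was still -0.37 (SE 0.04, adjusted p = 2.84e-05). Without shDYRK1A 1B the value of PSMD12 was -0.69 and no subunit passed -0.7, and without shControl 1C PSMD12, PSMD5 and PSMA3 passed it. The other end of the lid was PSMD8 (ENSG00000099341, chromosome 19, 38374536 to 38383824, plus strand), with 10423, 10233 and 8599 in shControl and 8459, 8004 and 7825 in shDYRK1A. Its groups were separate by a small margin, its log2 fold change of -0.27 (SE 0.13, adjusted p = 0.0645) did not pass the test, and relative to the other human genes it was 0.14 (SE 0.05, adjusted p = 0.0381). PSMD11, another lid scaffold, followed PSMD12 with -0.59 with spike-in and -0.19 with TMM scaling, and both values passed the test. SEM1, the small lid subunit that is named otherwise, stood at -0.44 (SE 0.13, adjusted p = 0.00279).

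The chaperones PSMD5, PSMD9 and PSMD10 bind ATPase modules before the 19S base is complete and are not part of the finished proteasome. Both tested chaperones were lower, where 63.4% of all genes were. PSMD5 (ENSG00000095261, chromosome 9, 120815496 to 120842984, minus strand) had 1595, 1623 and 1313 in shControl and 1119, 819 and 988 in shDYRK1A, and its log2 fold change was -0.63 (SE 0.15, adjusted p = 0.000147). PSMD10 (ENSG00000101843, chromosome X, 108084207 to 108091618, minus strand), also known as gankyrin, had 3407, 3504 and 2972 in shControl and 2555, 1923 and 2136 in shDYRK1A, and its log2 fold change was -0.58 (SE 0.14, adjusted p = 0.000186). In both, shDYRK1A 1B was the lowest library and the groups were separate, and both stayed lower with TMM scaling, at -0.23 and -0.18. The 3 chaperones made up 1.43 ± 0.0402% of the counts on the 38 genes in shControl and 1.25 ± 0.116% in shDYRK1A (SD, n = 3).

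Of the activators, PSME1 and PSME2 did not pass the test. PSME4 was lower, and PSME3 was lower only by a small margin, where 63.4% of all genes were lower. PSME1 and PSME2 encode the subunits of the interferon-inducible activator that joins the ends of the core, PSME3 encodes its nuclear relative, and PSME4 a large single-chain nuclear activator. PSME1 (ENSG00000092010, chromosome 14, 24136158 to 24138967, plus strand) had 5437, 4847 and 4414 for shControl 1A to 1C and 5015, 4853 and 4529 for shDYRK1A 1A to 1C. All 3 silenced libraries fell inside the range of the controls, and the log2 fold change was -0.03 (SE 0.14, adjusted p = 0.851). PSME2 (ENSG00000100911, chromosome 14, 24143362 to 24147570, minus strand), the partner of PSME1 in the same complex, had 9059.8, 7934 and 7086 in shControl and 8296, 7772 and 7282 in shDYRK1A. Its silenced libraries also lay inside the range of the controls, with shControl 1A on top and shControl 1C at the bottom, and it had a log2 fold change of -0.04 (SE 0.13, adjusted p = 0.772). The pair lies on opposite strands of the same stretch of chromosome 14.

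Relative to the other human genes PSME1 and PSME2 were the highest of the 35, at 0.38 (SE 0.07, adjusted p = 0.000574) and 0.37 (SE 0.06, adjusted p = 0.000592). Without any scaling beyond the library total, PSME1 had 113, 101 and 110.0 CPM in shControl and 137, 155 and 136 CPM in shDYRK1A. PSME2 had 188, 166 and 177 CPM in shControl and 226, 249 and 219 CPM in shDYRK1A. In both the lowest silenced library exceeded the highest control, with shDYRK1A 1B on top. Leaving out single libraries turned the small negative sign with spike-in scaling, to 0.05 for both genes without shControl 1A, while with TMM scaling both stayed higher in all 6 fits that left out 1 library.

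PSME3 (ENSG00000131467, chromosome 17, 42824385 to 42843758, plus strand) had 8998, 9021 and 7402 in shControl and 7624, 6009 and 6914 in shDYRK1A. Its shDYRK1A 1A library lay above shControl 1C, so the groups overlapped. Its log2 fold change of -0.31 (SE 0.13, adjusted p = 0.0355) passed the test by a small margin, and did not with no filter beyond 1 count (adjusted p = 0.0769). The call was also lost without shControl 1A, shControl 1B, shDYRK1A 1B or shDYRK1A 1C. PSME4 (ENSG00000068878, chromosome 2, 53864067 to 53970840, minus strand) had 7388, 6752 and 5948 in shControl and 5132, 3915 and 4659 in shDYRK1A. Its libraries were separate, with shDYRK1A 1B lowest, and its log2 fold change was -0.55 (SE 0.14, adjusted p = 0.000207). With TMM scaling PSME3 stood at 0.10 (SE 0.04, adjusted p = 0.0579) and PSME4 was lower at -0.15 (SE 0.05, adjusted p = 0.0201). The median of the 4 activators was -0.18, which is 0.23 above the median of all genes, and it sits between 2 values near 0 and 2 lower ones.

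**Figure D2:**
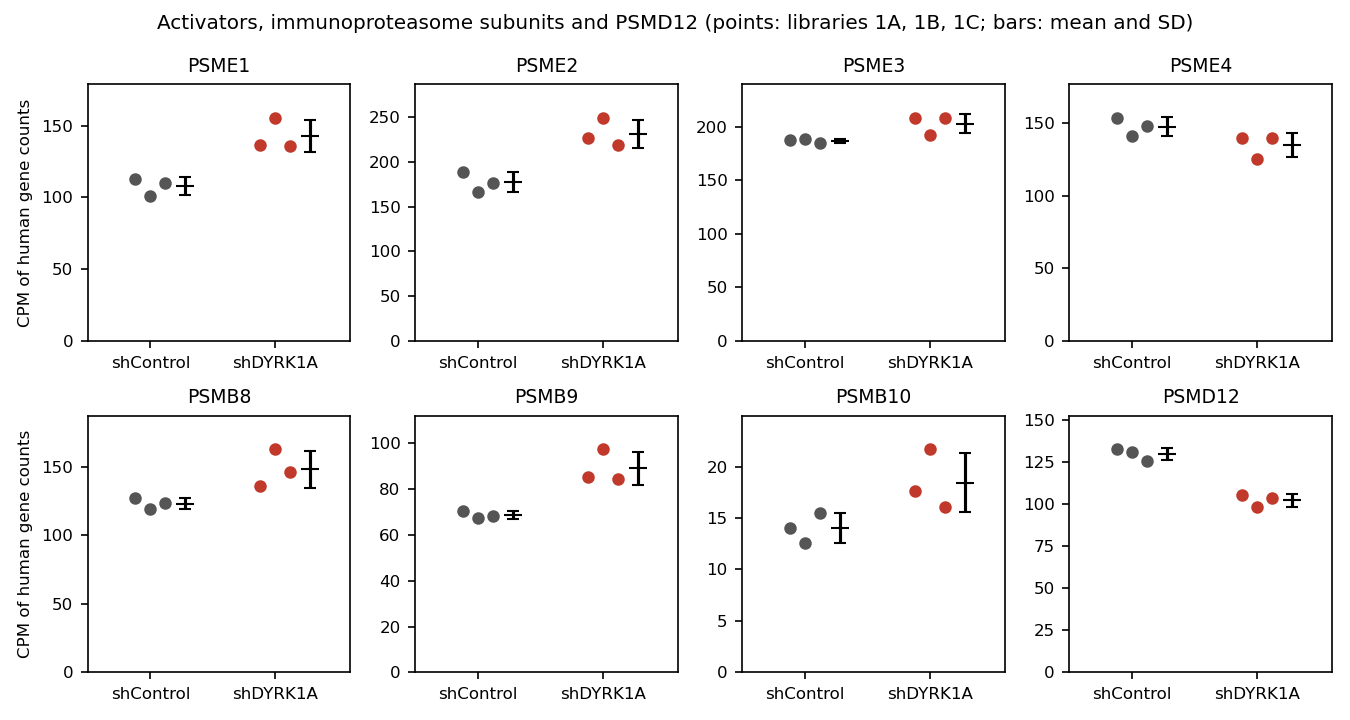
Counts per 1000000 human gene counts (CPM) of the 4 activators, 3 immunoproteasome subunits and PSMD12, with a point per library and the mean and SD beside them, on axes that start at 0. PSME1, PSME2, PSMB8, PSMB9 and PSMB10 lie higher in all shDYRK1A libraries than in any shControl library on this scale, though not by spike-in normalized counts. PSMD12 lies lower, at 102 ± 3.77 against 130 ± 3.45 CPM. By CPM the groups did not overlap, in either direction, in 62.8% of all genes.

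The immunoproteasome subunits, which are not among the 38 genes, were examined beside PSME1 and PSME2 because interferon gamma induces both. PSMB8, which replaces PSMB5, had 6121, 5697 and 4962 in shControl and 4979, 5084 and 4881 in shDYRK1A. PSMB10, which replaces PSMB7, had 677, 600.3 and 620.2 in shControl and 646, 676 and 535 in shDYRK1A. Groups overlapped in both, and the log2 fold changes of -0.17 (SE 0.14, adjusted p = 0.265) and -0.03 (SE 0.16, adjusted p = 0.866) did not pass the test. PSMB9, which replaces PSMB6 and was named after its values were seen, stood at -0.06 (SE 0.14, adjusted p = 0.711). With TMM scaling all 3 were higher, where 27.3% of all genes were. The values were 0.25 (SE 0.07, adjusted p = 0.00916) for PSMB8, 0.35 (SE 0.07, adjusted p = 0.00082) for PSMB9 and 0.37 (SE 0.12, adjusted p = 0.0181) for PSMB10. The thymus-specific PSMB11 and the testis-specific PSMA8 were at or near 0 and were not tested.

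Ratios within a library need no scaling. Per kilobase of exon, PSMB8 was at 56.2, 56.4 and 56.6% of PSMB5 in shControl and at 67.3, 66.8 and 66.4% in shDYRK1A. PSMB9 was at 13.0, 12.6 and 12.7% of PSMB6 in shControl and at 15.3% in each shDYRK1A library. Both ratios were higher in every silenced library than in any control, and a two-sided exact permutation test of 3 libraries against 3 cannot give a p below 0.1. PSMB10 was at 5.73, 5.15 and 6.6% of PSMB7 in shControl and at 7.29, 8.14 and 6.58% in shDYRK1A, where shDYRK1A 1C lay just under shControl 1C. PSMB10 shares 58.3% of its coding bases with exons of AC040162.1 on the same strand, so part of its reads could not be assigned to it alone.

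The same view without scaling was taken of the composition of the proteasome transcripts. Activators made up 8.08 ± 0.180% of the counts on the 38 genes in shControl and 8.96 ± 0.174% in shDYRK1A (SD, n = 3), and no libraries overlapped. Counting error alone gives a 95% Wilson interval of at most ± 0.105 percentage points for the activators in a single library. The alpha ring went from 14.1 ± 0.140% to 13.5 ± 0.0752% and the lid from 22.2 ± 0.140% to 21.4 ± 0.184%, both also without overlap. With PSMA1 left out of the ring and of the total, the share of the alpha ring was 13.8 to 14.0% in shControl and 13.3 to 13.4% in shDYRK1A, still without overlap. Shares of the beta ring (22.1 ± 0.0577% and 22.2 ± 0.760%), of the ATPases (14.6 ± 0.191% and 14.9 ± 0.105%) and of the other base subunits (17.5 ± 0.266% and 17.7 ± 0.538%) overlapped between the groups. The shares add up to 100% within a library, so a larger share in one class lowers those of the others.

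**Figure D3:**
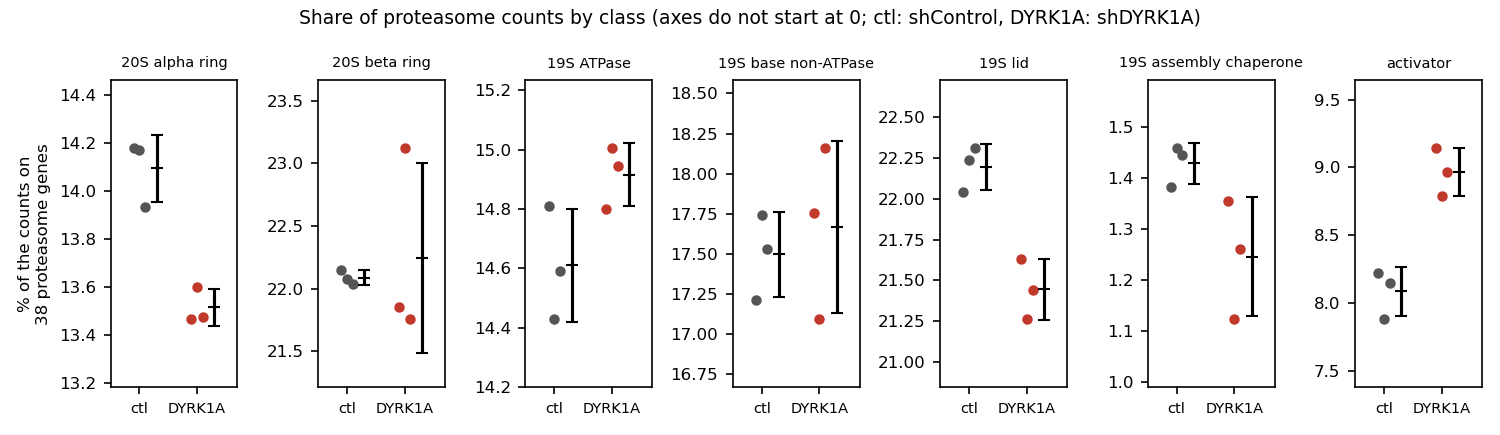
Share of the counts on the 38 proteasome genes taken by each class, in percent, with a point per library and the mean and SD beside them, on axes that do not start at 0. The activators are higher in all shDYRK1A libraries, the alpha ring, the lid and the assembly chaperones are lower in all of them, and the beta ring, ATPases and other base subunits overlap.

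When each activator was set against the geometric mean of the 12 tested core subunits of the same library, relative to the mean of the controls, PSME1 stood at 1.30, 1.34 and 1.28 times the control ratio in shDYRK1A 1A, 1B and 1C. PSME2 stood at 1.31, 1.31 and 1.26 times. PSME3 was at 1.14, 0.961 and 1.13 times and PSME4 at 0.971, 0.792 and 0.962 times. PSME1 and PSME2 were thus the activators with a higher ratio to the core in all 3 silenced libraries, while the 3 values of PSME3 lay on both sides of 1. Outside the activators, PSMD12 was at 0.83, 0.705 and 0.81 times the control ratio and PSMC4 at 1.21, 1.17 and 1.23 times. A higher ratio in all 3 silenced libraries was thus not confined to PSME1 and PSME2. The remaining subunits were not set against the core in this way.

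The levels of the subunits in single libraries followed those of all genes, which share 1 size factor per library, except in shDYRK1A 1B. shControl 1C was the lowest of the controls in all 35 tested subunits and in 99.1% of the 9697 genes tested. The median over the subunits, in log2 units from the control mean, was 0.12 in shControl 1A, 0.07 in 1B and -0.19 in 1C, where that of all genes was 0.08, 0.08 and -0.18. Medians of the silenced libraries 1A, 1B and 1C lay at -0.31, -0.43 and -0.43 for the subunits and at -0.27, -0.55 and -0.41 for all genes. Library 1B was thus the lowest for all genes but level with 1C for the subunits. Every silenced library was below shControl 1A and 1B in 33 of the 35 subunits, all but PSME1 and PSME2, and in 87.3% of all genes. The number of subunits called lower with spike-in scaling depended on these libraries, with 13 without shControl 1A, 18 without shControl 1B, 15 without shDYRK1A 1C, 21 without shDYRK1A 1B, 30 without shDYRK1A 1A and 32 without shControl 1C. The 12 subunits that remained lower in all 6 of these fits were PSMA1, PSMA3, PSMA4, PSMB4, PSMD2, PSMD7, PSMD11, PSMD12, PSMD14, PSMD5, PSMD10 and PSME4. The share of all genes called lower in these fits was not counted. Whether the subunits differ from all genes in this was not tested.

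**Figure D4:**
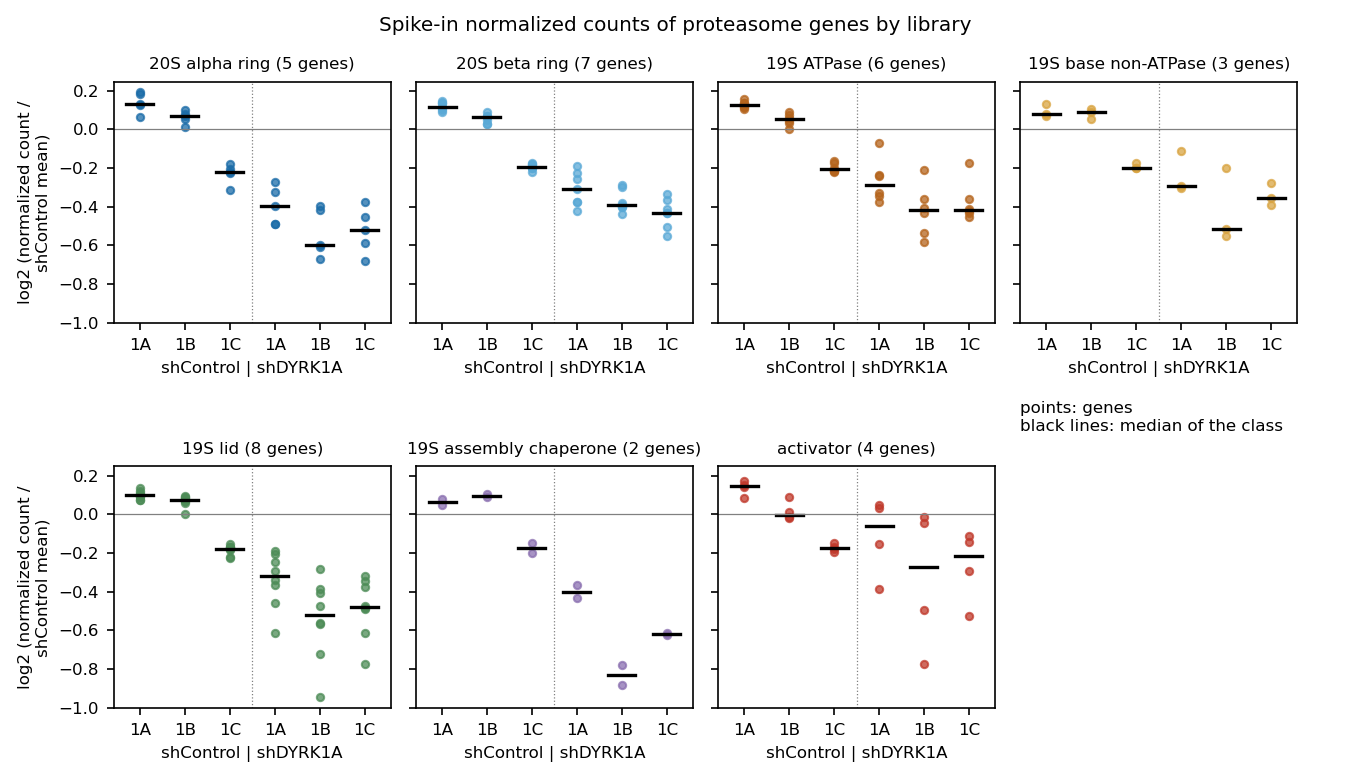
Spike-in normalized counts of the tested proteasome genes by class and library, as log2 of the ratio to the gene's shControl mean, with a point per gene and a black line at the class median. In every class shControl 1C lies lowest of the controls, and most genes lie lower again in the shDYRK1A libraries.

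Among the 35 subunits the log2 fold change with spike-in scaling had a Spearman correlation of -0.416 with the genomic span of the gene and of 0.244 with the level in shControl. Without the 4 activators the values over 31 subunits were -0.302 and 0.363. Over 9693 tested genes with a span they were -0.203 and -0.114. All these points come from the same 6 libraries, and genes are not independent replicates. PSMA1, whose counts may hold only part of its reads, is included with the longest span, 138.8 kb. Its RefSeq start lies inside that annotated span, so the span depends on the annotation. PSME1 and PSME2 are among the shortest of the subunit genes, at 2.81 and 4.21 kb, and PSMD12 spans 28.7 kb, but PSMB6 and PSMB4, at 2.36 and 2.41 kb, stood at -0.32 and -0.44.

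Levels per kilobase of exon differed widely between subunits that sit once in each ring. These levels depend on the length used, here all annotated exons of a gene. With the longest transcript instead, PSMC6 went from 549 to 1397 per kilobase in shControl and PSMC3 from 5643 to 8129. The part of annotated length in the spread was not tested. In shControl the standard deviation of the log2 level per kilobase was 0.68 to 0.71 over the 7 beta subunits and 1.23, 1.19 and 1.23 over the 6 ATPases in libraries 1A, 1B and 1C. In shDYRK1A it was 0.68 to 0.72 over the beta subunits. For the 5 tested alpha subunits it was 1.86 to 1.95 in shControl, a spread that includes PSMA1 with its shared coding bases.

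Besides PSMA1, 3 subunits share most of their coding sequence with another annotated gene, and these are the ones that did not pass the filter. PSMA2 shares 97.1% of its coding bases with AC010132.3, PSMA6 70.3% with AL121594.1, and PSMD9 58.7% with AC069503.2. PSMA2 had 366 ± 58.6 normalized counts in shControl and 242 ± 32.5 in shDYRK1A (SD, n = 3), and its groups were separate. PSMA6 had 124 ± 6.72 and 114 ± 23.5, and PSMD9 157 ± 36.4 and 165 ± 24.6, with overlap in both. The counts of these genes, and that of PSMA1, cannot be read as the level of the transcripts, since reads in exons of more than 1 gene go to the ambiguous class, which held 3.42 to 3.59% of the reads of a library.

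The genes that work with the proteasome are read against the 63.4% of all genes that were lower with spike-in scaling, where the median was -0.40, and against 28.6% lower and 27.3% higher with TMM. Among 6 further assembly chaperones 5 were lower, and the median was -0.42 with spike-in scaling, while with TMM 1 was lower and 0 were higher. PSMG1, which helps to build the alpha ring, was the lowest, at -0.58 (SE 0.14, adjusted p = 0.000146), and PSMG3 the highest, at -0.27 (SE 0.14, adjusted p = 0.0882), a value that did not pass the test. Of 6 proteasome-associated factors 5 were lower, with a median of -0.45, and with TMM 2 were lower and 1 higher. UCHL5, a deubiquitinase bound to the base, was the lowest, with 3313, 3284 and 2665 in shControl and 2030.3, 1466 and 1822 in shDYRK1A. Its libraries were far apart between the groups, and its log2 fold change was -0.80 (SE 0.14, adjusted p = 2.99e-07). USP14, the other deubiquitinase of the base, named after its values were seen, was lower too, at -0.75 (SE 0.14, adjusted p = 8.08e-07). Relative to the other human genes the pair stood at -0.40 (SE 0.06, adjusted p = 0.000139) and -0.34 (SE 0.05, adjusted p = 0.000208). PSMF1, an inhibitor of the core, did not pass the test, at -0.12 (SE 0.13, adjusted p = 0.4), and was higher relative to the other human genes, at 0.28 (SE 0.04, adjusted p = 0.000291).

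Shuttle factors, which carry ubiquitinated proteins to the proteasome, were lower in 4 of 6 with spike-in scaling (all genes 63.4%), with a median of -0.33, and with TMM 1 was lower and 1 higher. DDI2, which is also the protease that activates NRF1, was the lowest, with 1909, 1710.1 and 1576 in shControl and 1023, 728 and 885 in shDYRK1A. None of its silenced libraries reached the lowest control, and its log2 fold change was -0.98 (SE 0.15, adjusted p = 2.97e-09), still -0.58 (SE 0.07, adjusted p = 3.09e-05) with TMM scaling. UBQLN4 was the highest, at -0.25 (SE 0.14, adjusted p = 0.0969), a value that did not pass. Of 6 genes in the activation of NRF1 4 were lower (all genes 63.4%), with a median of -0.38, and with TMM 1 was lower and 1 higher. The lowest was NPLOC4, a cofactor of the segregase VCP, at -0.66 (SE 0.13, adjusted p = 7.05e-06). NFE2L1, which encodes NRF1 itself, had 11626, 11730.1 and 10268 in shControl and 11761, 9649 and 10849 in shDYRK1A. Its shDYRK1A 1A library was the highest of the 6, the log2 fold change of -0.06 (SE 0.13, adjusted p = 0.69) did not pass the test, and relative to the other human genes it was higher, at 0.34 (SE 0.04, adjusted p = 3.52e-05).

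Of 5 ubiquitin and E1 genes 3 were lower with spike-in scaling (all genes 63.4%), and the median of -0.41 lay 0.01 below that of all genes. With TMM 1 was lower and 2 were higher. UBA6, the E1 enzyme that charges both ubiquitin and the ubiquitin-like modifier FAT10, was the lowest gene of all these lists, with 2291, 2183 and 1897 in shControl and 1133, 784 and 987 in shDYRK1A. Every silenced library was far under the controls, and its log2 fold change was -1.13 (SE 0.15, adjusted p = 2.76e-12) with spike-in scaling and -0.74 (SE 0.07, adjusted p = 4.25e-06) with TMM. UBA1, the main E1 enzyme of ubiquitin, was the highest, at -0.23 (SE 0.13, adjusted p = 0.101), which did not pass the test, and relative to the other human genes it was 0.17 (SE 0.04, adjusted p = 0.00461). Of the kinases related to DYRK1A, only DYRK1B and DYRK2 were examined, and they went opposite ways. Both had low levels in shControl, at percentiles 2.54 and 5.91 of the genes tested. DYRK1B was higher, at 0.65 (SE 0.16, adjusted p = 0.000222) with spike-in scaling and 1.06 (SE 0.08, adjusted p = 1.68e-06) with TMM, and DYRK2 was lower, at -0.67 (SE 0.17, adjusted p = 0.000253) and -0.27 (SE 0.08, adjusted p = 0.011).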

How the data were processed

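RNA of T98G cells was sequenced in 6 libraries, 3 per group. The authors deposited raw counts per human gene, read with STAR, and a table of normalized signal, in which each column is the raw count over 1 size factor that the study took from fly reads. A further deposited table holds the authors' DESeq2 comparison (log2 fold changes, p-values and a score) and was not used. Version and annotation of the aligner step are not given in the sources used here. Coordinates are GENCODE v29 on GRCh38 (hg38 per the labels), which matched those of 96.1% of the genes. All per-sample columns matched a sample (0 did not).

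Genes were kept above a mean normalized count of 10 per 1000000 counts of the mean library (9697 genes). Raw counts entered edgeR 4.0.16 (quasi-likelihood fit, robust, group only) with the spike-in size factors, and the Benjamini-Hochberg adjustment ran over all genes kept. Calls needed an adjusted p below 0.05, and 0.7 served as log2 fold change threshold. The SE is the log2 fold change over the root of F, and values after ± are SD over 3 libraries. Median-of-ratios and TMM scaling, DESeq2 1.42.0, other filters, a block on the library letter and the loss of each library were tried. Steps were tested on simulated data. Promoters came from RefSeq. The members, lists and motifs were chosen with earlier results of these data known. Values in every library are given for the lowest and highest gene of each class, all activators, subunits past 0.7 and those higher with TMM scaling, with both extremes of each other list named. A gene of the list of ubiquitin and E1 genes is not reported here and was left out of its counts. R was 4.3.3 and Python 3.11.15.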

Additional observations from a re-analysis of the deposited data

How the results depend on the processing

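Scaling over the human genes in place of the fly spike-in moved the subunits most. The subunits lower numbered 6 with TMM and 6 with median of ratios, those higher 5 and 6, and those past -0.7 were 0 and 0, while the median of the subunits was 0.0137 and 0.0168. Signs turned under TMM and median of ratios, respectively, for PSMA5 (0.0646 and 0.0677), PSMB3 (0.12 and 0.12), PSMC4 (0.26 and 0.26), PSMD4 (0.22 and 0.22), PSMD8 (0.14 and 0.14), PSME3 (0.10 and 0.10), PSME2 (0.37 and 0.37), PSME1 (0.38 and 0.38), ADRM1 (0.19 and 0.19), PSMB8 (0.25 and 0.25), PSMB10 (0.37 and 0.37), PSMG3 (0.14 and 0.15), PSMF1 (0.28 and 0.28), UBQLN4 (0.15 and 0.15), NFE2L1 (0.34 and 0.34) and UBA1 (0.17 and 0.18). The shift of the median of all genes is part of the construction of these scalings.

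Leaving out 1 library at a time gave 13 to 32 subunits lower and 0 to 3 past -0.7 with spike-in scaling, and 5 to 11 lower with TMM, where the 11 came without shDYRK1A 1B. It turned the sign of PSME1 (-0.0995 to 0.0516), PSME2 (-0.13 to 0.0516), PSMB10 (-0.10 to 0.064) and NFE2L1 (-0.13 to 0.0125), none of which passed the test. The share of all genes called was not counted in these fits, nor with the other filters, DESeq2 or the block on the library letter. The median of the lid minus that of all genes ran from -0.0596 to 0.0036. With no filter beyond 1 count this difference became -0.0586 for all subunits, -0.042 for the ATPases, -0.0494 for the other base subunits, -0.0899 for the lid and 0.16 for the activators, because the many low genes then enter the median of all genes. Levels per kilobase moved for 31 of the named genes when the longest transcript replaced all exons. The alpha ring without PSMA1, an alternative chosen after seeing the data, had a median of -0.0482 relative to the median of all genes. The count of subunits lower was 26 with no filter, where PSMB2, PSMB3, PSMB6, PSMD3 and PSME3 lost their call and PSMA2 gained one, 30 with filterByExpr, where PSMB3 lost it and PSMA2 gained one, 31 with DESeq2, which added PSMD8, and 31 with ADRM1 and SEM1 added.

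Library letters were shared between groups. The deviations of same-letter libraries correlated at 0.15, 0.07 and 0.13, so the letters were not taken to pair the samples, although each library correlated best with its own letter. With the letter as a replicate block 29 subunits were lower and 1 was past -0.7, and the call lost was that of PSMB3 (edgeR adjusted p = 0.055).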
